A study of Mus musculus with 30 samples.

Results

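Liver RNA of female CD-1 mice, an outbred stock, was compared at postnatal day (PND) 21, about the age of weaning, between 3 animals exposed before birth to cadmium chloride (CdCl2, 500 ppb) and 3 controls. These 6 libraries, chosen by their labels and described here across all genes, are part of a series of 30 liver libraries that also holds PND1 females and PND42 females and males. The exposure was gestational, and the labels name no further treatment for either group and no genotype other than the stock. Which animals were litter mates is not given, so that p-values measure the spread between these samples only. The table held 14259 genes with a symbol and a mouse Ensembl identifier, of which 13886 had at least 10 normalised counts in at least 3 of the 6 libraries and were tested. Values are normalised counts, read counts divided by a library size factor, and a log2 difference is exposed minus control on the log2(normalised count + 1) scale, which understates the difference of low genes.

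Cadmium is a toxic metal that binds thiol groups and is held in the liver by metallothioneins, small proteins that also buffer zinc and are induced by both metals. Around weaning the mouse liver completes its change from a fetal blood-forming organ to a metabolic one. Cholesterol synthesis is governed by the transcription factor SREBP2, secretory protein folding by chaperones of the endoplasmic reticulum (ER), and growth by growth hormone acting through STAT5 on genes such as Igf1.

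Read totals over the tabulated genes were 24.8 to 28.3 M reads in exposed and 22.0 to 24.6 M reads in control livers, so that every exposed library was deeper than every control library. Mitochondrially encoded genes took 13.9% to 23.4% of reads in exposed and 12.1% to 18.3% in control livers. Both Exposed 3 and Exposed 1 stood apart. On the first principal component, which held 34.4% of the variance, Exposed 3 lay at −66.2, whereas the other 5 libraries lay between −6.34 and 34.0. On the second, which held 24.7%, Exposed 1 lay at 51.8 and the others between −30.9 and 11.4. Values without either animal are given beside the gene groups whose median they moved most. All 10 hepatocyte markers were present in the table, with Alb, the gene of serum albumin, at 975548, 1694079 and 1523131 normalised counts in exposed livers, against 1358432, 3345573 and 2360836 in control livers.

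At an adjusted p under 0.05, 5 of the 13886 genes passed, which is 0.036%, and 4 of these rose while 1 fell. Without that adjustment, 707 genes (5.09%) had p under 0.05 with a higher mean in exposed livers and 622 (4.48%) with a lower one. The 3 exposed values lay wholly above the 3 control values for 1110 genes (7.99%) and wholly below them for 1197 genes (8.62%). These shares are the background against which the gene groups are read. When the 8 PND1 libraries entered the same fit, so that the spread was estimated over 14 libraries, the PND21 comparison called 44 genes, or 0.317%, of which 3 were among the 5 (2310007B03Rik and both lipid genes, Pctp and Pmvk). Of other genes named below, that fit called Adcy1, Aldh1a1, C6, Cish, Cyp2c40, Dnajb1, Gm26740, Hhex, Mup3, Mup17, Nr0b2, Pdia4, Podxl, Sdf2l1 and Zfp981. limma voom on the recovered reads called 2, 2310007B03Rik and Gm11273, and so no member of the gene lists below. The count rested on single libraries: it was 0 without Exposed 1, 5 without Exposed 2 (1 of them among the same 5), 14 without Exposed 3, 2 without Control 1, 1 without Control 2 and 0 without Control 3. Total reads in place of the authors' size factors moved the median of all genes from −0.01 to 0.23, and higher or lower here means relative to the median gene as the authors scaled the libraries.

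Pctp, on chromosome 11 (GRCm38, 89982665 to 90002894, minus strand), encodes a carrier protein that moves phosphatidylcholine, the main membrane lipid, between membranes. It measured 300.3, 210.3 and 264 normalised counts in exposed livers, against 48.1, 61.1 and 36.0 in control livers. The groups were far apart, without overlap, and Pctp rose (log2 difference 2.41 ± 0.29 SE, limma adjusted p = 0.0473). It passed in 4 of 16 alternative settings, and missed the threshold with trimmed-mean scaling (adjusted p = 0.0504), with size factors from the PND21 libraries alone (adjusted p = 0.0549) and without any 1 of the 6 animals (adjusted p = 0.0665 to 0.244).

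Pmvk, on chromosome 3 (89454541 to 89469013, plus strand), encodes phosphomevalonate kinase, which adds the second phosphate to mevalonate on the way to cholesterol. Its values were 1819, 1549 and 1498 normalised counts in exposed livers, against 554, 562 and 434 in control livers. Every exposed liver was above every control, and Pmvk rose (log2 difference 1.65 ± 0.18 SE, limma adjusted p = 0.0293).

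2310007B03Rik, on chromosome 1 (93151349 to 93160948, minus strand), is annotated as protein coding. It had 46 to 66 reads in each exposed liver and 1 read in each control liver, which is 48.5, 61.7 and 74.2 normalised counts in exposed livers, against 1.46, 1.33 and 1.39 in control livers. The summed reads were 174 in exposed and 3 in control livers, a depth-corrected ratio of 43.9 with an exact 95% interval of 14.8 to 214.9 that covers counting error only. The gene rose with limma adjusted p = 0.0293.

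Gm11273 and Gm8730 completed the called genes. Gm11273, on chromosome 13 (21501029 to 21501418, minus strand), is a gene model of 390 exonic bases annotated as protein coding, and it had 440.5, 319.7 and 338 normalised counts in exposed livers, against 4.38, 14.6 and 12.5 in control livers. It rose (log2 difference 5.12 ± 0.44 SE, limma adjusted p = 0.0143). Gm8730, on chromosome 8 (102864845 to 102865798, minus strand), is annotated as a processed pseudogene, so that reads shared with its parent gene make its value uncertain. It had 4.21, 7.48 and 25.1 normalised counts in exposed livers, against 423, 958 and 439 in control livers and fell (log2 difference -5.75 ± 0.60 SE, limma adjusted p = 0.0293). Both genes also differed widely among animals of 1 group at other ages. In PND1 livers Gm11273 measured 4.85, 224, 159.6 and 188 in exposed and 209.7, 181, 5.74 and 189 in control animals, so that 1 animal of each group was near the PND21 control level. In PND42 females, whose table was scaled apart, Gm11273 measured 595, 432, 4.32 and 444 in exposed and 236, 2.83, 110 and 5.5 in control animals. Gm8730 measured 232, 66.3, 3.60 and 3.15 in the same exposed and 383, 355, 576 and 3.67 in the same control animals.

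**Figure D1:**
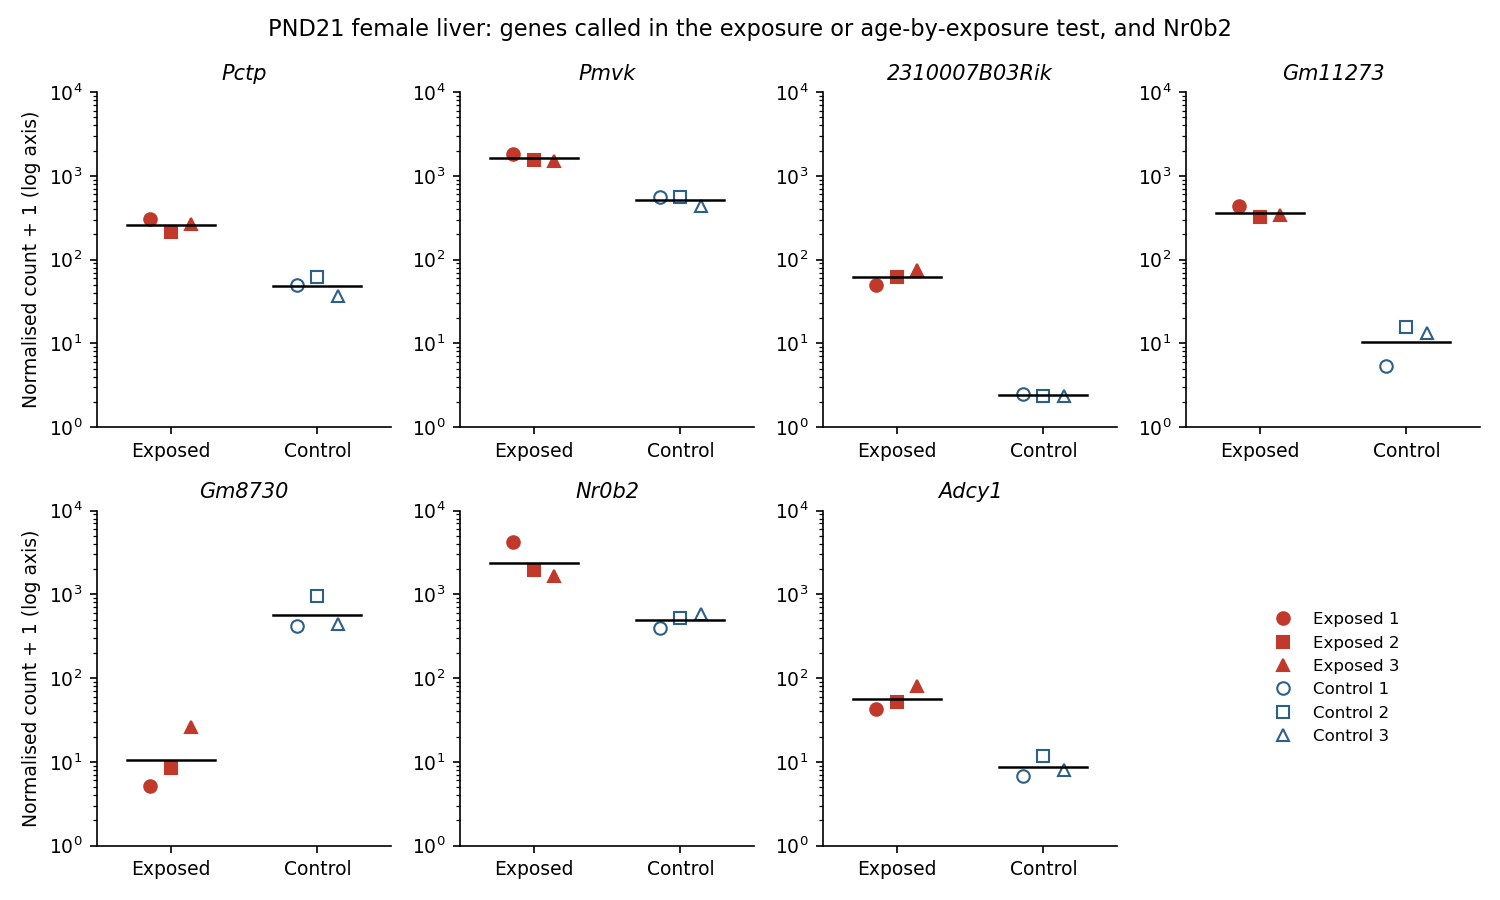
Normalised count plus 1 (log axis) in each PND21 female liver for 7 genes, exposed in filled red and control in open blue symbols, with the mean of the log values as a black line. In all 7 genes the 3 exposed points lie on 1 side of the 3 control points. Nr0b2 did not pass the exposure test, and Adcy1 passed the test of the difference between ages and not the exposure test at PND21 alone.

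The PND1 livers were scaled together with the PND21 livers, so that the exposure effect at both ages could be compared in 1 fit. That test of the PND21 effect minus the PND1 effect covered 14259 genes and called 2 of them (0.014%), Pctp and Adcy1. At PND1, Pctp had 1507, 2354, 2278 and 1665 normalised counts in exposed and 1604, 2662, 2465 and 2302 in control pups, which overlap. The control livers thus held far less Pctp at PND21 than at PND1, and the exposed weanling livers lay between the PND21 control and PND1 levels. The effect at PND21 exceeded that at PND1 by 2.62 on the log2 scale (limma adjusted p = 0.0092). Adcy1, which encodes an adenylate cyclase that makes cyclic AMP, had 42.1, 51.4 and 79.0 normalised counts in exposed livers, against 5.83, 10.6 and 6.92 in control livers at PND21. At PND1 it had 136, 141, 130.3 and 119.7 in exposed and 139, 129.5, 201 and 164 in control pups, so that its PND21 exposed values likewise lay between the PND21 control and PND1 levels. Its effect at PND21 exceeded that at PND1 by 2.96 (limma adjusted p = 0.0106). Pmvk came next, with a difference between ages of 1.64 that did not pass (limma adjusted p = 0.0877). At PND42, Pctp measured 21.4, 437, 33.1 and 23.6 in exposed and 71.8, 106, 61.0 and 71.5 in control females, so that 3 of the 4 exposed values were below every control value there and 1 was above them all. The name of 1 of these 4 control columns carries a tag that the labels give to a PND21 control, and its sample is uncertain.

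Cholesterol synthesis genes were mostly higher in exposed weanlings. Of the 20 enzymes listed, all of which were tested, 1 rose (Pmvk), 18 had a higher mean, and in 10 (50%) the exposed values lay wholly above the control values, against 7.99% of all genes. In none were they wholly below. The median log2 difference was 0.64, against −0.01 over all genes, and it was also 0.64 without Exposed 3. By library, the list mean relative to the control mean was 0.81, 0.67 and 0.60 in exposed and −0.01, 0.10 and −0.09 in control livers.

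The pathway runs from acetyl-CoA through mevalonate and squalene to lanosterol and cholesterol. Among the isoprenoid enzymes after Pmvk, Fdps, which joins isoprene units into farnesyl diphosphate, measured 223, 150.5 and 58.6 in exposed against 45.2, 33.2 and 37.4 in control livers, and the isomerase gene Idi1 measured 61.1, 73.8 and 132 in exposed against 42.3, 27.9 and 18.0 in control livers. Fdft1, the squalene synthase that commits carbon to sterols, had 4737, 3178 and 3650 normalised counts in exposed livers, against 1635, 2338 and 1924 in control livers. Its groups did not overlap (log2 difference 0.97 ± 0.22 SE, limma adjusted p = 0.345). In the later steps Msmo1, a sterol oxidase, had 4609, 3850 and 3973 in exposed against 2467, 2064 and 2219 in control livers, with a gap between the groups. It did not pass (0.88 ± 0.18 (SE, adjusted p = 0.341)).

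The genes that govern the pathway differed less. Of 12 tested genes of SREBP2 control and sterol uptake, 8 had a higher mean, 1 (8.33%) had exposed values wholly above the controls, and the median was 0.23 (0.07 without Exposed 1, 0.06 without Control 1). Srebf2, which encodes SREBP2 itself, measured 2153, 1643 and 1808 in exposed against 1452, 1818 and 1334 in control livers, with overlapping groups. Srebf1, the factor for fatty acid synthesis, had 6439, 9507 and 2854 normalised counts in exposed livers, against 11408, 11565 and 10350.2 in control livers, wholly lower without passing (log2 difference -0.99 ± 0.40 SE, limma adjusted p = 0.497; −0.50 without Exposed 3). At PND1 the cholesterol list had a median of −0.32, with 1 of 20 members higher in exposed pups; no list difference between ages was tested, and of its members none passed the test between ages.

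**Figure D2:**
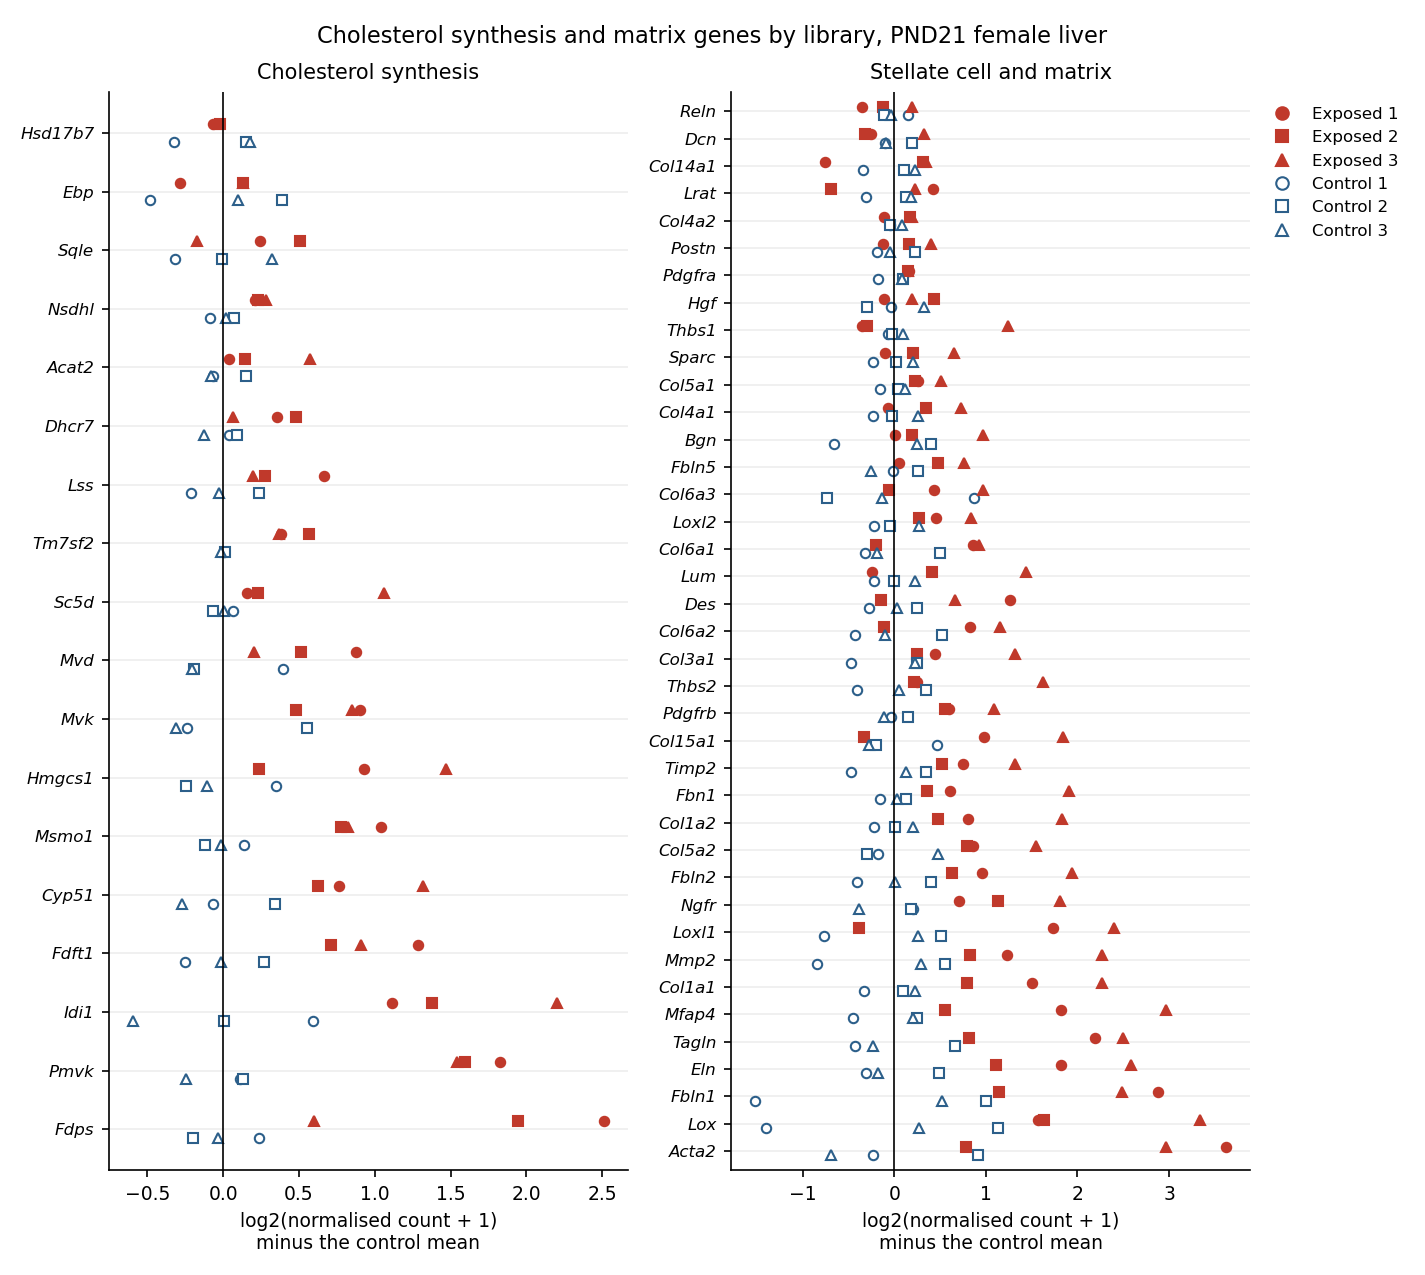
Each library's log2(normalised count + 1) minus the control mean, for 18 of the cholesterol synthesis genes (left) and 39 genes of stellate cells and matrix (right), with filled red for exposed and open blue for control livers. In 9 of the 18 cholesterol genes shown and 17 of the 39 matrix genes the exposed points lie wholly above the control points.

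Cholesterol leaves the liver partly as bile acids. Nr0b2, which encodes the repressor SHP that lowers bile acid synthesis, had 4235, 1926 and 1667 normalised counts in exposed livers, against 399.7, 524 and 589 in control livers. All 3 exposed livers were well above the controls, yet Nr0b2 did not pass in these 6 libraries (log2 difference 2.26 ± 0.34 SE, limma adjusted p = 0.168); with the PND1 libraries in the same fit its adjusted p was 0.0203. Cyp7a1, the rate-limiting enzyme of bile acid synthesis and a target of SHP, had 2404, 6481 and 189 normalised counts in exposed livers, against 6337, 5023 and 7683 in control livers. Exposed 2 was within the control range, Exposed 1 was below it, and Exposed 3 was lowest by far (log2 difference -2.12 ± 1.32 SE, limma adjusted p = 0.615). Cyp7b1, of the alternative route, had 478, 408 and 479 in exposed against 1196, 474 and 1296 in control livers. Over the 19 tested genes of bile acid synthesis and transport the median was −0.07 (0.17 with total-read scaling). Of these, 1 (5.26%) was wholly above and 2 (10.5%) wholly below the controls, against 7.99% and 8.62% of all genes.

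Chaperones of the ER were mostly lower in exposed livers. Of 26 tested genes of ER folding and the unfolded protein response, limma called none at an adjusted p under 0.05 and 13 were lower with an unadjusted p under 0.05. A lower mean was found in 24, and in 14 (53.8%) the exposed values lay wholly below the controls, against 8.62% of all genes. The median was −0.62 (−0.61 without Exposed 3), and the list mean by library was −0.55, −0.72 and −0.79 in exposed and 0.06, −0.24 and 0.18 in control livers. In the fit with PND1 libraries 2 of them passed, Sdf2l1 and Pdia4.

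Hspa5 encodes BiP, the main HSP70 chaperone of the ER, and had 11446, 10091 and 10405 normalised counts in exposed livers, against 20284, 19913 and 24391 in control livers. The 3 exposed livers were close together and well below the controls (log2 difference -1.01 ± 0.22 SE, limma adjusted p = 0.341). Sdf2l1, a BiP partner, had 648, 440.3 and 534 normalised counts in exposed livers, against 1462, 1283 and 1715 in control livers, with a gap between the groups (log2 difference -1.47 ± 0.20 SE, limma adjusted p = 0.104). Hyou1, a large HSP70-like chaperone, had 2565, 1813 and 1462 in exposed against 4074, 3808 and 5331 in control livers, and Pdia4, a disulphide isomerase, had 2628, 2463 and 3106 in exposed against 5007, 5104 and 6799 in control livers. In neither gene did the groups overlap (-1.20 ± 0.25 (SE, adjusted p = 0.341) and -1.04 ± 0.21 (SE, adjusted p = 0.341)). Creld2 measured 1447, 838 and 688 in exposed against 4252, 1449 and 3510 in control livers, and the secreted ER stress protein gene Manf measured 3896, 2959 and 2463 in exposed against 5554, 5536 and 7433 in control livers. Among the sensors and factors the differences were smaller: Xbp1, whose spliced form drives ER chaperone genes, had 2552, 3229 and 2845 in exposed against 3408, 3258 and 4066 in control livers. Derl3, of ER-associated degradation, measured 134, 43.0 and 56.2 in exposed against 484, 129 and 259 in control livers, where Exposed 1 was above Control 2.

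Many ER chaperone genes carry the ER stress response element, bound by ATF6 with NF-Y, in their promoters. The element was searched as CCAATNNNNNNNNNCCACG on both strands, in the window from 250 bases before to 50 bases after each RefSeq gene start (GRCm38.p6). It was present in 9 of the 22 tested ER genes that have a promoter sequence there (40.9%), against 39 of 32851 promoters in all (0.119%) and 0.181% of tested genes with a promoter. Of these 9 genes, 8 had a lower mean in exposed livers, 5 were wholly below the controls, and their median difference was −0.69. Over all 26 tested ER genes, 24 had a lower mean, 14 were wholly below and the median was −0.62, so that the 9 were much like the whole list. The promoters of Sdf2l1 and Pdia4, which passed in the fit with PND1 libraries, held no match to this exact pattern, and imperfect forms were not searched. The windows below are those of the 5 genes wholly below the controls and of Canx, the calnexin gene, which holds the element too and whose mean was not lower (0.13 ± 0.23 SE). Each is shown on the gene's strand with 10 flanking bases on either side and the matched element in capitals; a match that reads CGTGG first lies in the reverse orientation.
Hspa5, chr2:34772015-34772053, plus strand: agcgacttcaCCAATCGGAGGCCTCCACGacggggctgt
Creld2, chr15:88819510-88819548, plus strand: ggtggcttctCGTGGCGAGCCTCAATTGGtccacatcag
Calr, chr8:84847065-84847103, minus strand: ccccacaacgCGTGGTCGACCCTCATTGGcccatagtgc
Dnajc3, chr14:118937817-118937855, plus strand: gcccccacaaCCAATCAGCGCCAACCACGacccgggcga
Hsp90b1, chr10:86705628-86705666, minus strand: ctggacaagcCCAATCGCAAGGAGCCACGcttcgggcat
Hsp90b1, chr10:86705523-86705561, minus strand: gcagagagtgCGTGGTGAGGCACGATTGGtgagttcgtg
Canx, chr11:50325790-50325828, minus strand: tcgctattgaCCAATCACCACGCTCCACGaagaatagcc
Hsp90b1, which encodes the ER HSP90 GRP94, holds a pair of matches in opposite orientations. The log2 differences behind these windows were −1.01 for Hspa5, −1.56 for Creld2, −0.64 for Calr (calreticulin), −0.58 for Dnajc3 (a BiP co-chaperone) and −0.47 for Hsp90b1. A match describes the letters only, and no binding was measured.

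Heat shock genes, which hold the chaperones of the cytosol and mitochondria, were also mostly lower. Of 15 tested, 13 had a lower mean and 6 (40.0%) were wholly below the controls, with a median of −0.57 (−0.56 without Exposed 3). limma called none, and 7 were lower with an unadjusted p under 0.05. In the fit with PND1 libraries 1 of them passed, Dnajb1 (adjusted p = 0.0223). The 7 genes of HSP70 and its partners were all lower in mean, with a median of −1.03. Hspa1b, an inducible HSP70, had 124, 149.6 and 155.6 normalised counts in exposed livers, against 454, 344 and 497 in control livers. Exposed livers were close together and far below the controls (log2 difference -1.57 ± 0.22 SE, limma adjusted p = 0.104). Its near-identical neighbour Hspa1a had 45.3, 27.1 and 39.5 in exposed against 81.7, 110.3 and 229.9 in control livers, and reads may be split between them. Dnajb1, the HSP40 partner, had 412, 539 and 428 normalised counts in exposed livers, against 904, 901 and 993 in control livers (log2 difference -1.03 ± 0.17 SE, limma adjusted p = 0.216). Hspa8, the constitutive HSP70, had 12635, 16097 and 10451 in exposed against 19077, 28388 and 34880.1 in control livers, and Hsf1, the factor that drives these genes, had overlapping groups with a difference of −0.27. The heat shock element, searched as GAANNTTCNNGAA on both strands, was in 4 of the 10 tested heat shock genes with a promoter and in 0.603% of all promoters. For the sterol regulatory element TCACNCCAC it was 1 of 15 cholesterol genes, against 1.24% of all promoters. The heat shock element matches lay in Hspd1, Hspe1, Hsph1 and Chordc1, where Hspd1 and Hspe1 hold the same matched bases. The promoters of Hspa1a, Hspa1b and Dnajb1 held no match to this exact pattern. Imperfect forms of these elements were not searched, so that no match does not mean no element.

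The integrated stress response, which can share triggers with ER stress, had no common direction: of 16 tested genes 8 had a higher mean and the median was 0.06 (−0.03 without Control 1). Atf4, its main factor, had 3019, 2747 and 2680 in exposed against 2706, 2329 and 2691 in control livers, and Ddit3, which encodes CHOP, had 831, 494 and 560.1 in exposed against 1262, 594 and 796 in control livers. In 2 of the 16 (12.5%, against 7.99% of all genes) the exposed values lay wholly above the controls. Trib3, a pseudokinase gene, had 274, 119 and 217 in exposed against 48.1, 53.2 and 91.4 in control livers, Gdf15, a stress-induced hormone gene, had 189.7, 78.5 and 128 in exposed against 30.6, 49.2 and 29.1 in control livers. Chac1, whose product breaks down glutathione, had the lowest difference of the list, with 161, 65.4 and 21.5 in exposed against 172, 197 and 155.1 in control livers, where Exposed 1 was among the controls (-1.49 ± 0.63 (SE, adjusted p = 0.516)). Cdkn1a of the cell cycle list, which encodes the inhibitor p21, had 1349, 878 and 913 in exposed against 357, 627 and 374 in control livers. Trib3, Gdf15 and Cdkn1a did not pass, with differences in that order of 1.62 ± 0.38 (SE, adjusted p = 0.348), 1.79 ± 0.40 (SE, adjusted p = 0.341) and 1.23 ± 0.27 (SE, adjusted p = 0.341).

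**Figure D3:**
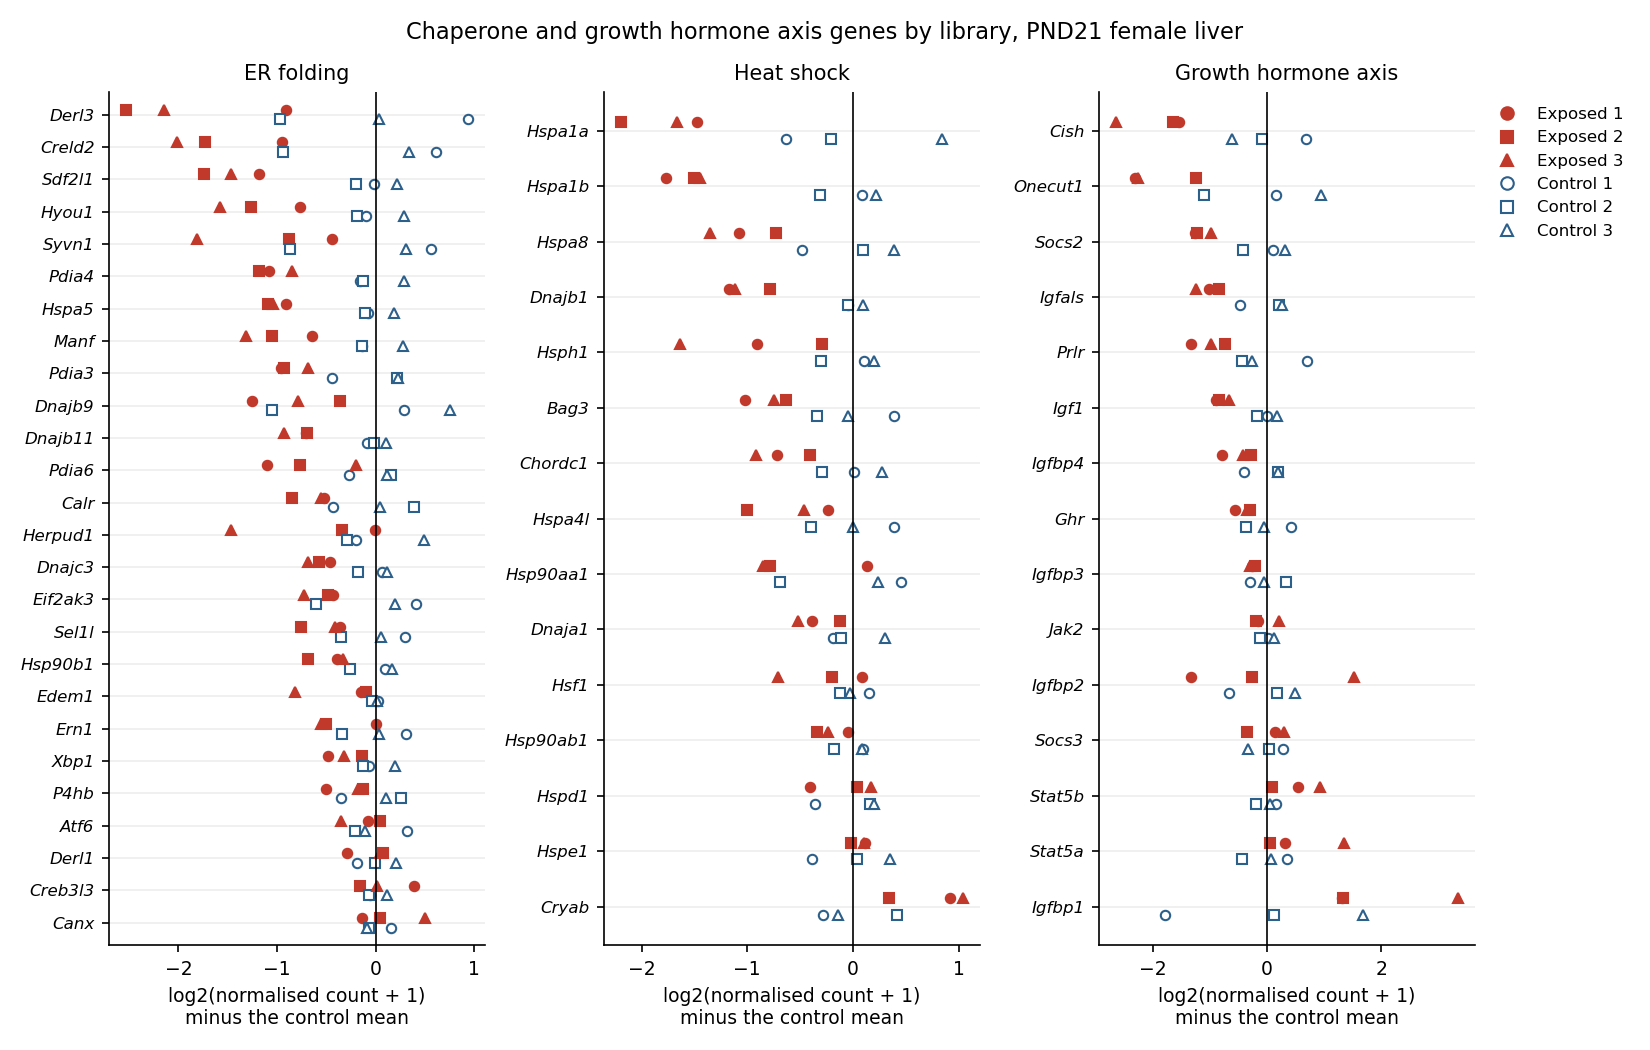
Each library's log2(normalised count + 1) minus the control mean for 26 ER folding genes, 15 heat shock genes and 15 genes of the growth hormone axis, with exposed livers in filled red and control livers in open blue. The exposed points lie wholly below the control points in 14, 6 and 6 genes of the 3 panels.

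Metal-responsive genes mostly had overlapping groups. Mt1 and Mt2, the metallothioneins that cadmium and zinc induce, had overlapping values. Mt1 measured 16168, 37096 and 14942 normalised counts in exposed livers, against 7848, 29546 and 12885 in control livers, and Mt2 measured 9331, 21911 and 7389 in exposed against 3428, 22948 and 9104 in control livers (0.53 ± 0.53 (SE, adjusted p = 0.739) and 0.36 ± 0.71 (SE, adjusted p = 0.883)). Over 16 tested genes of metallothioneins and metal transport the median was −0.15 (0.09 with total-read scaling and 0.02 without Exposed 1), with 1 wholly above and 3 (18.8%) wholly below the controls, against 8.62% of all genes. Slc39a4, a zinc importer, had 738, 696 and 911 in exposed against 1328, 1227 and 1122 in control livers, wholly below, and Slc30a1, the zinc exporter that zinc induces, had 335, 919 and 741 in exposed against 419, 998 and 745 in control livers. Mtf1, the metal-sensing factor, had 744, 879.7 and 573 in exposed against 1069, 888 and 927 in control livers, also wholly below.

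Among 17 iron genes the median was −0.20, and 0.04 with total-read scaling. Hamp2, a close relative of the gene of the iron hormone hepcidin, had 9.48, 17.8 and 2405 normalised counts in exposed livers, against 17188, 13846 and 5799 in control livers. Exposed 1 and 2 were almost devoid of it and Exposed 3 lay nearer to the controls. It did not pass in all 6 libraries (log2 difference -7.16 ± 2.26 SE, limma adjusted p = 0.477), and did without Exposed 3 (−9.63, limma adjusted p = 0.00314). It overlaps another gene model, and the strand of counting was not stated. Hamp, which encodes hepcidin, had 14456, 29084 and 3842 in exposed against 22063, 34539 and 24155 in control livers. Alas2, the first enzyme of haem synthesis in red cells, had 872, 622 and 959 in exposed against 1258, 1542 and 2097 in control livers. Over all 13 tested erythroid markers the sum was 34122 to 52102 normalised counts in exposed and 31103 to 90442 in control livers; their part in this was not tested.

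Genes of the growth hormone axis were mostly lower. Of 15 tested, 11 had a lower mean and 6 (40.0%) were wholly below the controls, against 8.62% of all genes. The median was −0.40 (−0.53 without Exposed 3). The list mean by library was −0.61, −0.44 and −0.15 in exposed and −0.05, −0.15 and 0.20 in control livers, so that Exposed 3 was level with Control 2. Igf1, the main hormone induced by growth hormone in liver, had 35023, 36393 and 41111 normalised counts in exposed livers, against 65148, 58049 and 73906 in control livers. The lowest control was above every exposed liver by a wide margin, and Igf1 did not pass (log2 difference -0.81 ± 0.25 SE, limma adjusted p = 0.426). Igfals, which encodes a carrier of IGF1 in serum, had 3166, 3578 and 2714 in exposed against 4617, 7385 and 7658 in control livers. Socs2 and Cish, feedback inhibitors that STAT5 induces, had 1010, 1041 and 1227 in exposed against 2624, 1816 and 3029 in control livers for Socs2 and 384, 359 and 179.5 in exposed against 1810, 1061 and 737 in control livers for Cish. Their differences were -1.16 ± 0.22 (SE, adjusted p = 0.307) and -1.94 ± 0.39 (SE, adjusted p = 0.341), and Cish passed with the PND1 libraries in the fit (adjusted p = 0.0263). The receptor genes did not share 1 pattern, with Ghr at 17336, 20819.7 and 20060 in exposed against 33949.7, 19885 and 24674 in control livers and Prlr, the prolactin receptor, at 569, 856 and 726 in exposed against 2312, 1059 and 1198 in control livers.

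Liver genes that growth hormone makes sex-biased in adults were also described. Of 20 tested male-biased genes, 19 had a lower mean and 6 (30%) were wholly below the controls, with a median of −0.84 (−0.94 without Exposed 3). The controls were not alike here: the list mean was −0.82, −1.61 and −0.89 in exposed and 0.29, −0.90 and 0.61 in control livers, so that Control 2 lay among the exposed animals. Mup3, a major urinary protein gene, had 17089, 13437 and 24665 normalised counts in exposed livers, against 83614, 46914 and 133538 in control livers, and its relative Mup17 had 0.00, 0.935 and 12.0 in exposed against 154.6, 112 and 659 in control livers. Mup genes are near-identical copies, and how their shared reads were counted was not stated in the labels. Without Exposed 3, Mup17 fell by 7.35 on the log2 scale (limma adjusted p = 0.0161). Of 25 female-biased genes, 15 had a higher mean, with a median of 0.17 (−0.02 without Control 1). In this list 3 (12.0%) were wholly above and 2 (8.0%) wholly below the controls, against 7.99% and 8.62% of all genes. Cyp2b9 had 8053, 10103 and 9189 in exposed against 3085, 6437 and 5241 in control livers and Cyp2b13 had 649, 2133 and 493 in exposed against 78.8, 383 and 132 in control livers, whereas Cyp2c40, which has close paralogues, had 4365, 4009 and 4640 in exposed against 8633, 10609 and 12136 in control livers. Their differences were 0.95 ± 0.29 (SE, adjusted p = 0.426), 2.47 ± 0.75 (SE, adjusted p = 0.452) and -1.26 ± 0.21 (SE, adjusted p = 0.216).

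Transcription factors of hepatocyte identity were mostly lower, with 13 of 17 lower in mean, 6 (35.3%) wholly below the controls, 1 wholly above and a median of −0.43 (−0.31 without Exposed 3). Cebpa, a factor of the mature hepatocyte, had 2571, 3313 and 3285 in exposed against 4766, 6793 and 5756 in control livers, and the pioneer factor gene Foxa1 had 186, 253 and 344 in exposed against 502, 419 and 647 in control livers. Onecut1, which growth hormone induces in rat liver, had 13.7, 29.9 and 14.4 in exposed against 80.2, 33.2 and 139.9 in control livers. Hhex, a homeobox factor of early liver that was not on the list, was named by its low p and had 1074, 1287 and 1136 normalised counts in exposed livers, against 2150, 2830 and 2939 in control livers (log2 difference -1.17 ± 0.19 SE, limma adjusted p = 0.212). Secreted hepatocyte proteins were also lower in part. Of 23 complement genes, 16 had a lower mean and 4 (17.4%) were wholly below, with a median of −0.28 (−0.15 without Exposed 1). C6, C8a, C8b and C9, which build the membrane attack complex, were the 4. C6 had 443, 354 and 384 normalised counts in exposed livers, against 1082, 776 and 1202 in control livers (log2 difference -1.35 ± 0.21 SE, limma adjusted p = 0.153). Of 20 coagulation genes, 17 had a lower mean and none was wholly below, with a median of −0.24 (−0.10 without Exposed 1 and −0.39 without Exposed 3). Orm1, an acute phase glycoprotein gene with near-identical copies, had 5441, 4604 and 2271 in exposed against 9646, 10980.1 and 10719 in control livers (-1.44 ± 0.32 (SE, adjusted p = 0.341)). The 10 hepatocyte markers all had a lower mean, 2 of them (20.0%) wholly below the controls, and summed to 2103866 to 2953016 normalised counts in exposed and 2745664 to 5228846 in control livers. In bulk tissue, fewer cells of a type and less RNA per cell cannot be told apart.

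**Figure D4:**
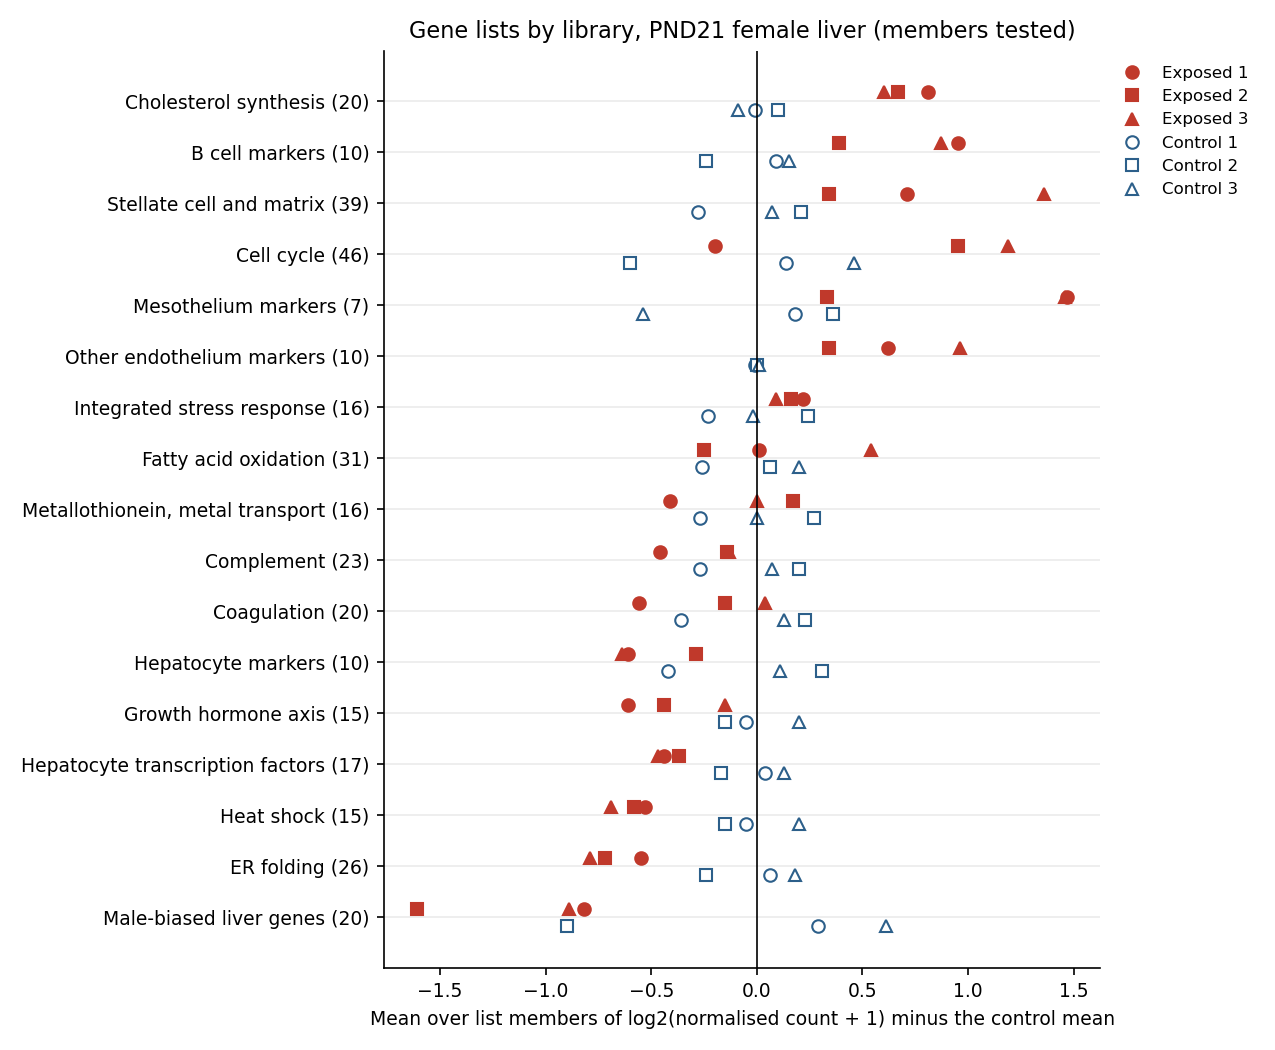
Mean over the tested members of 17 gene lists of log2(normalised count + 1) minus the control mean, for each exposed (filled red) and control (open blue) library. The exposed points lie wholly on 1 side of the control points for cholesterol synthesis, B cell markers, matrix, other endothelium, hepatocyte transcription factors, heat shock and ER folding. They overlap for cell cycle, fatty acid oxidation, metal transport and male-biased genes.

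Further genes of low p outside these lists did not pass in these 6 libraries and had groups that do not overlap. Among those higher in exposed livers, Epha2, an ephrin receptor gene, had 671, 482 and 681 in exposed against 241, 255 and 312 in control livers, and Ppp1r3c, which targets a phosphatase to glycogen, had 2153, 1302 and 2213 in exposed against 744, 742 and 798 in control livers. Zfp981, one of a cluster of similar zinc finger genes, had 229, 126 and 71.8 in exposed against 16.1, 15.9 and 13.8 in control livers, and the antisense gene Gm26740 had 165, 101 and 138 in exposed against 30.6, 26.6 and 23.6 in control livers. Both overlap other gene models, so that without strand their reads cannot be told apart from those of their neighbours. Among those lower, Aldh1a1, which oxidises retinal to retinoic acid and has a close paralogue in Aldh1a7, had 4025, 3655 and 4099 in exposed against 7385, 8420 and 8644 in control livers, and Ugt2a3, a glucuronosyltransferase gene, had 1285, 1725 and 1252 in exposed against 2699, 3583 and 3712 in control livers. The limma adjusted p of the genes in this paragraph was between 0.106 and 0.224. With the PND1 libraries in the same fit, Gm26740, Zfp981 and Aldh1a1 passed (limma adjusted p = 0.00239, 0.0203 and 0.0255). Epha2, Ppp1r3c and Ugt2a3 did not.

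Matrix genes and markers of some non-hepatocyte cells were mostly higher in exposed livers. Erythroid markers had a higher mean in 6 of 13 cases and megakaryocyte and platelet markers in 0 of 6, with medians of −0.08 and −0.13. Kupffer cell and macrophage markers had a higher mean in 10 of 12, but none was wholly above the controls. Neutrophil markers had one in 7 of 8 and T and NK cell markers in 6 of 7, with 1 wholly above in each. Of 39 tested genes of stellate cells, the liver's matrix-producing cells, and matrix, 35 had a higher mean and 17 (43.6%) were wholly above the controls, with a median of 0.62. limma called none, and 15 were higher with an unadjusted p under 0.05. Exposed 3 was the highest library by list mean (1.36, against 0.71 and 0.34 in Exposed 1 and 2), and without it the median was 0.35. Col1a1, the main fibrillar collagen gene, had 2449, 1489 and 4156 normalised counts in exposed livers, against 686, 919.8 and 1008 in control livers, and Eln, the elastin gene, had 2749, 1677 and 4669 in exposed against 624, 1085 and 686 in control livers. Neither passed (1.52 ± 0.35 (SE, adjusted p = 0.348) and 1.84 ± 0.37 (SE, adjusted p = 0.341)). Acta2, the smooth muscle actin of activated stellate cells and vessel walls, had 1450, 202 and 916 in exposed against 99.2, 221 and 72.0 in control livers, with Exposed 2 within the control range.

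Vessel and serosal markers had the same direction. Of 10 markers of endothelium other than sinusoidal, 9 had a higher mean and 4 (40.0%) were wholly above, with a median of 0.46 (0.31 without Exposed 3) and a sum of 5287 to 6853 normalised counts in exposed and 4613 to 4670 in control livers. Wnt9b and Wnt2, WNT ligands that central vein endothelium secretes to maintain nearby hepatocytes, had 117, 102 and 199 in exposed against 26.3, 50.5 and 42.9 in control livers for Wnt9b and 138, 101 and 231 in exposed against 59.8, 54.5 and 83.1 in control livers for Wnt2. Rspo3, which strengthens that signal, had 710.2, 499 and 872 in exposed against 432, 299 and 335 in control livers. The 12 sinusoidal markers had a median of 0.09 and none was wholly above. Among 7 tested mesothelium markers, which line the liver surface, 3 (42.9%) were wholly above, against 7.99% of all genes. Their median was 0.96 (0.40 over the 5 tested without Exposed 3), with a sum of 402 to 944 in exposed and 177 to 267 in control livers. The list means overlapped, at 1.47, 0.33 and 1.46 in exposed and 0.18, 0.36 and −0.54 in control livers. Podxl, one of these markers, had 218, 259 and 513 normalised counts in exposed livers, against 72.9, 69.1 and 95.6 in control livers (log2 difference 1.96 ± 0.34 SE, limma adjusted p = 0.216). Upk1b had 42.1, 35.5 and 126 in exposed against 8.75, 7.97 and 5.54 in control livers. It was tested only because the exposed livers reached 10 normalised counts, so that the filter favoured a higher value there. Lrrn4 and Muc16 of that list are not analysed here. The 10 tested B cell markers all had a higher mean, 5 (50%) wholly above the controls, with a median of 0.83; the 12 listed summed to 654 to 1194 in exposed and 445 to 655 in control livers. Cell content was not measured, and its part in the matrix result was not tested.

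Cell cycle genes were higher in mean in 42 of 46 cases, with a median of 0.58, but only 1 (2.17%) was wholly above the controls, and that was the inhibitor gene Cdkn1a. The median was 0.39 without Exposed 3, 1.07 without Exposed 1 and 0.37 without Control 2. The libraries within a group were far apart: list means were −0.20, 0.95 and 1.19 in exposed and 0.14, −0.60 and 0.46 in control livers. Mki67, a marker of dividing cells, measured 312, 1150 and 1763 in exposed against 414, 269.8 and 615 in control livers, so that Exposed 1 was like the controls. The 16 tested fetal and imprinted genes had a median of 0.37 with 3 (18.8%) wholly above the controls, against 7.99% of all genes. H19, an imprinted fetal RNA, had 1285, 4434 and 11235 in exposed against 1405, 1951 and 1673 in control livers, Igf2, the fetal growth factor, had 562, 545 and 2525 in exposed against 535, 530.3 and 403 in control livers, and Afp, the fetal counterpart of albumin, had 571, 473 and 2155 in exposed against 785, 712 and 547 in control livers. In each, Exposed 3 was the highest library. Without Exposed 3 the list median was 0.24.

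The clock genes further set Exposed 3 apart. Arntl, which encodes the activator BMAL1, had 613, 348 and 1014 in exposed against 289, 388 and 205 in control livers, its partner Npas2 had 14.8, 2.81 and 348 in exposed against 13.1, 7.97 and 1.39 in control livers, and the repressor gene Per2 had 4587, 4502 and 428 in exposed against 6611, 4228 and 5723 in control livers. Over 19 clock genes the median was −0.38, and without Exposed 3 it was 0.08. Of these genes, 1 (5.26%) was wholly above and 3 (15.8%) wholly below the controls, against 7.99% and 8.62% of all genes. Times of day of tissue collection were not stated in the labels. Fatty acid oxidation genes had a median of 0.04 over 31 members, with 16 higher and 15 lower in mean; it was −0.09 without Exposed 3 and −0.12 without Control 1. Pdk4, which spares glucose when fat is burnt, had 227, 194 and 664 in exposed against 86.1, 125 and 177 in control livers, and Fgf21, a fasting hormone gene, had 108, 73.8 and 431 in exposed against 62.7, 66.5 and 54.0 in control livers. In both, Exposed 3 had by far the highest value. Of 17 immediate early genes the median was 0.31, and Nr4a1, an orphan nuclear receptor gene, had 118, 66.4 and 142 in exposed against 27.7, 33.2 and 36.0 in control livers, whereas Myc, a growth factor-induced oncogene, had 172, 139 and 67.0 in exposed against 928, 231 and 464 in control livers. Neither passed (1.66 ± 0.36 (SE, adjusted p = 0.341) and -1.98 ± 0.54 (SE, adjusted p = 0.423)).

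**Figure D5:**
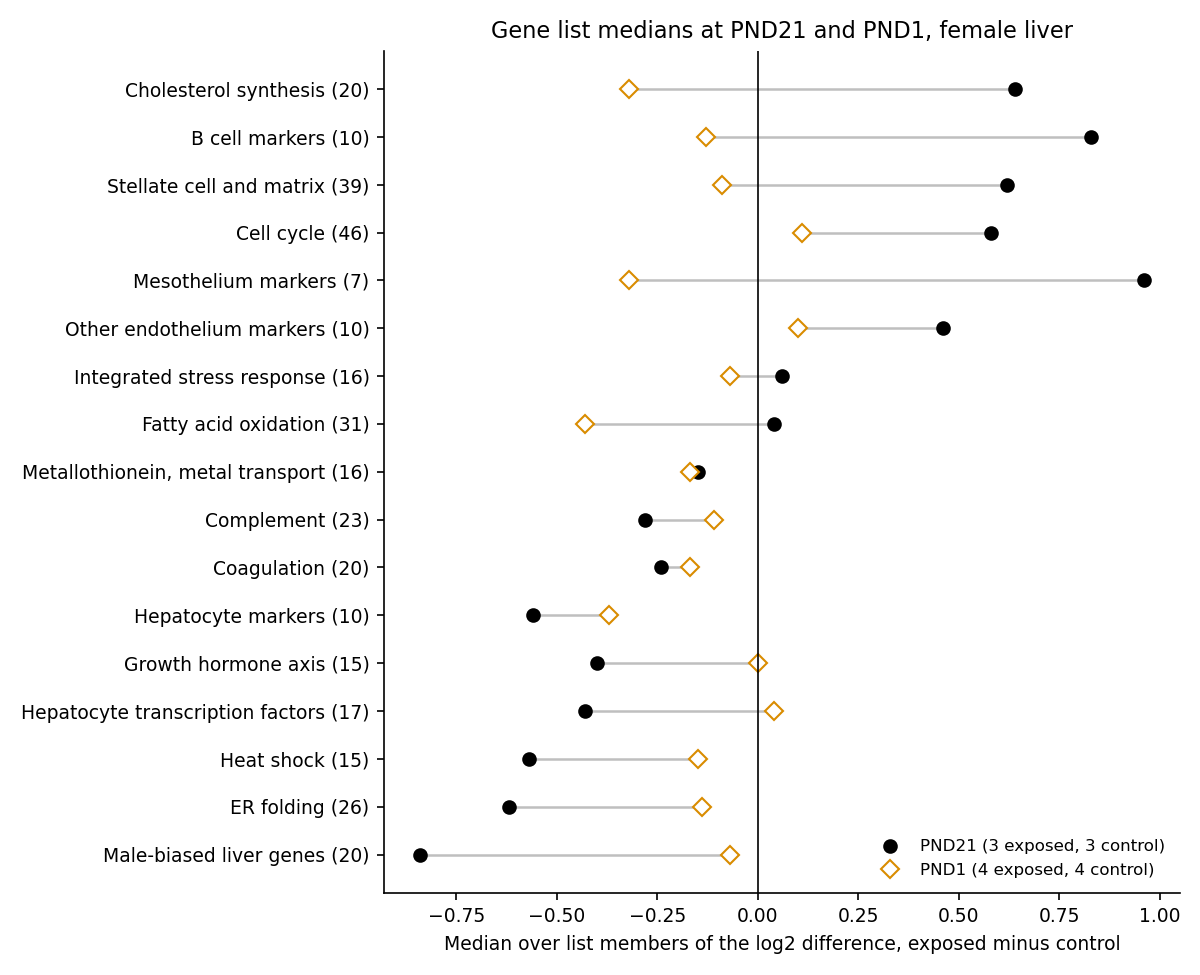
Median over list members of the log2 difference (exposed minus control) at PND21 (black circles) and PND1 (open orange diamonds) for 17 gene lists, with the number of members tested at PND21 in brackets. Cholesterol synthesis lies at 0.64 at PND21 and −0.32 at PND1, and ER folding at −0.62 and −0.14.

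Most of the list medians plotted at PND1 were nearer to 0 than at PND21. ER folding had −0.14 there, heat shock −0.15, male-biased genes −0.07, matrix −0.09 and B cell markers −0.13, while fatty acid oxidation had −0.43 and hepatocyte markers −0.37. These medians rest on other animals, 4 exposed and 4 control pups, and no difference between list medians was tested. Of the members named here, Pctp alone passed the test between ages together with Adcy1. Hspa5, for example, had a difference between ages of −0.94 (limma adjusted p = 0.355), and Sdf2l1 one of −1.30 (limma adjusted p = 0.199).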

How the data were processed

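Liver RNA with an integrity number of at least 7 was sequenced as single-end 125 bp reads, per the labels' protocols. Reads were handled with FastQC, STAR and featureCounts on build mm10, per the submitters' processing notes; versions and strand setting are not given there. The deposited log2 values were made by the authors as the log2 of read count over library size factor plus 1, as read from the values: 100% came back as whole reads within 0.1. The deposited signal column (baseMean) is the authors' mean over 14 libraries, so that PND1 and PND21 were scaled together. The lowest mean was 10.5; rarer genes are not analysed here. The authors' own fold changes and p-values were not used, nor were 8 columns of PND42 males.

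limma 3.58.1 (R 4.3.3) was fitted to the deposited log2 values of the 6 libraries with robust empirical Bayes and a trend in intensity, two-sided, with Benjamini-Hochberg adjustment over 13886 genes and a threshold of 0.05; errors are limma's SE. The comparison of ages used 14 libraries and 4 group means. Some animal tags in the labels share a leading number between PND1 and PND21, and the fits with both ages took no account of that. Scripts were tested on simulated data. Positions are from GENCODE vM21 and promoters from RefSeq. Intervals were computed with scipy 1.17.1.

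The members and gene lists were chosen with earlier results of these data known. Named genes are those called, the 15 of lowest p in each direction whose groups do not overlap, up to 4 of lowest p per list with fixed regulators, and the 8 of lowest p between ages. Other list members named were chosen after their values were seen, and a few genes that the rule names are not reported here. Alternatives changed the scaling, the pseudocount, the filter, the model, the libraries in the fit and single animals.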

Additional observations from a re-analysis of the deposited data

Results flagged for a closer look

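The exposure effect differed between ages in 2 genes by the test of the difference itself (limma, 14 libraries): it was larger at PND21 than at PND1 by 2.96 on the log2 scale for Adcy1 and by 2.62 for Pctp. Single animals stood apart in 4 of 20 groups of 4 that were checked for the called genes, where chance gives about 1 in 20. These were a PND1 control pup with 190 normalised counts of 2310007B03Rik, a PND1 control pup with 5.73 of Gm11273, a PND42 exposed female with 437 of Pctp and a PND1 exposed pup with 745 of Pmvk.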

How the results depend on the processing

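The count of 5 called genes was 2 with limma voom on the recovered reads, 0 with voom that is not robust (chosen after seeing the data; 1243 genes had an unadjusted p under 0.05), 2 with neither trend nor robust fit, 44 with the PND1 libraries in the fit, and 0 to 14 when 1 animal was left out, where 1249 genes without Exposed 1 and 673 without Control 3 still had an unadjusted p under 0.05. Replicate numbers did not pair the animals, with correlations of deviations of 0.233, −0.043 and 0.097 between same-numbered libraries, and a replicate block gave 8 calls, 2 of them among the 5. Over the alternatives the adjusted p ranged from 0.000767 to 0.244 for Pctp, 0.00239 to 0.232 for Pmvk, 0.00135 to 0.164 for 2310007B03Rik, 0.00294 to 0.149 for Gm11273 and 0.00141 to 0.244 for Gm8730, with no change of direction, and they passed in 4 of 16, 8 of 16, 8 of 13, 12 of 16 and 6 of 16 alternatives in that order. For 2310007B03Rik the fits without an exposed animal are missing, because it then failed the filter. Trimmed-mean scaling and size factors from the PND21 libraries alone gave 4 calls each, without Pctp. The 2 calls between ages became 0 with voom, 4 with total-read scaling, 4 with neither trend nor robust fit and 2 to 12 with 1 animal left out.

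Total-read scaling moved list medians to 0.87 for cholesterol synthesis, 0.47 for SREBP2 control, 0.17 for bile acids, −0.33 for heat shock, −0.39 for ER folding, 0.30 for the integrated stress response, 0.09 for metal transport, 0.04 for iron, −0.16 for the growth hormone axis, −0.19 for hepatocyte transcription factors, −0.04 for complement, 0.55 for immediate early genes and 0.70 for other endothelium. With 1 animal left out, medians ranged from 0.54 to 0.67 for cholesterol synthesis, 0.06 to 0.33 for SREBP2 control, −0.12 to 0.15 for fatty acid oxidation, −0.83 to −0.43 for heat shock, −0.03 to 0.25 for the integrated stress response, −0.28 to 0.02 for metal transport, −0.46 to 0.00 for iron, −0.02 to 0.27 for female-biased genes, −0.52 to −0.31 for hepatocyte transcription factors and −0.68 to 0.08 for the clock. Single genes named changed sign in 6 cases: without 1 animal Afp ranged from −0.37 (without Exposed 3) to 0.72, Mt2 from −0.33 (without Control 1; −0.11 without Exposed 2) to 1.04 and Slc30a1 from −0.50 to 0.28 (without Exposed 1; 0.13 without Control 2), and Slc30a1 was at 0.09 with total-read scaling. Where a value moved, the cause was not tested. Counting error limits genes near the lowest mean.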

Other observations

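Ammonia is removed in the liver by the urea cycle, and 9 of 12 tested genes of that cycle and of amino acid breakdown had a lower mean in exposed weanlings, with a median of −0.34 (−0.09 without Exposed 3 and −0.06 without Control 2). Only Otc (8.33%) was wholly below the controls, against 8.62% of all genes, and the list means overlapped, at −0.29, 0.05 and −0.77 in exposed and −0.42, 0.46 and −0.04 in control livers. Otc, a mitochondrial enzyme of the cycle, had 7860, 11496 and 12188 normalised counts in exposed livers, against 14225, 19206 and 19530 in control livers, which is wholly lower without passing (log2 difference -0.76 ± 0.26 SE, limma adjusted p = 0.456). Sugar handling was uneven: Slc2a2, the glucose transporter GLUT2, had 2728, 6060 and 5323 in exposed against 7587, 7698 and 7904 in control livers, and Pklr, the liver pyruvate kinase, had 1632, 9120 and 4818 in exposed against 10314, 7814 and 10971 in control livers. Of 33 interferon-stimulated genes 17 had a higher mean, with a median of 0.03. In 2 (6.06%) the exposed values lay wholly above the controls, against 7.99% of all genes. Usp18, 1 of these 2, which restrains interferon signalling, had 234, 279.5 and 227 in exposed against 111, 168 and 136 in control livers. Of 23 genes of foreign compound metabolism 8 had a higher mean, with a median of −0.09. Of these genes 1 (4.35%) was wholly above and 2 (8.7%) wholly below the controls, against 7.99% and 8.62% of all genes. The 1 above was Cyp2c55, with 164, 36.5 and 122 in exposed against 13.1, 35.9 and 13.8 in control livers.

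Besides Pctp, 13 genes of phosphatidylcholine handling were tested. Gnmt, which consumes the methyl donor that also serves phosphatidylcholine synthesis, had 31769, 31959 and 14421 in exposed against 14307, 15586 and 13358 in control livers, with Exposed 3 among the controls, and Chpt1, of the last step of the choline route, had 2634, 1657 and 1741 in exposed against 2709, 2860 and 3176 in control livers. Pemt, the methylation route, had 8099, 12216 and 12742 in exposed against 8060, 13008 and 11749 in control livers. Cholangiocyte markers had a higher mean in 8 of 9 cases with 1 wholly above the controls, and summed to 2052, 2359 and 5001 normalised counts in exposed and 1997, 2879 and 2371 in control livers. Exposed 1 and 2 lay within the control range, and without Exposed 3 the median was 0.22, against 0.69 with it; 3 further listed markers are not analysed here.

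Genes longer than 300 kb had a higher mean in exposed livers in 290 of 399 cases (72.7%), against 48.9% of all genes, with a median of 0.20, and 22 (5.51%) were wholly above the controls. In PND1 livers 343 of the same 399 had a higher mean in exposed pups, against 6801 of the 13886 genes tested at PND21. The PND1 median over all 420 such genes in the table was 0.31. Every PND21 exposed library was also deeper than every control library. At PND1 the read totals overlapped, at 25.4 to 29.6 M reads in exposed and 24.4 to 27.8 M in control livers. The part of depth or RNA quality in the difference of long genes was not tested.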
